A study of Mus musculus with 2 samples.

Results

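The genes examined were *Srebf1* and *Srebf2*, which encode the sterol regulatory element-binding proteins (SREBPs), *Insig1*, which encodes a protein that holds SREBPs back, and 7 enzymes of cholesterol synthesis, *Hmgcs1*, *Idi1*, *Fdps*, *Fdft1*, *Sqle*, *Lss* and *Cyp51*. They were chosen by name: every probe set that the platform annotation pairs with 1 of these 10 genes alone was taken, which gave 24 of the 45101 probe sets of the array, for 10 of 18193 named genes. Expression was compared between *BCL11B*+/+ and *BCL11B*-/- mouse embryonic fibroblasts (MEFs), primary cells grown from embryonic day 12.5 embryos of the C57BL/6 strain. Both cultures had been in adipocyte differentiation medium for 12 h, which held 0.5 mM methylisobutylxanthine and 1 μM dexamethasone together with pioglitazone at 10 μM, insulin at 10 μg/ml and fetal bovine serum at 10%, so neither shows the undifferentiated state. There was 1 array for each genotype and no replicate, and how many embryos were behind each culture is not given in the sources used here. Differences are therefore described by size, as *BCL11B*-/- minus *BCL11B*+/+ on the log2 scale, and no p-value is given.

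SREBPs are made as membrane proteins of the endoplasmic reticulum. When sterols run low, the escort protein SCAP carries them to the Golgi apparatus, where proteases release the part that enters the nucleus and activates genes of cholesterol and fatty acid synthesis. When sterols are plentiful, INSIG proteins hold SCAP and its SREBP in the endoplasmic reticulum, and *Insig1* is itself an SREBP target. SREBP-2, from *Srebf2*, acts mainly on cholesterol genes, whereas SREBP-1, from *Srebf1*, acts more on fatty acid genes and responds to insulin. Because SREBPs are controlled largely by proteolysis, the mRNA level of *Srebf1* or *Srebf2* does not measure the active protein.

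The arrays had medians of 5.28 log2 units in *BCL11B*+/+ and 5.28 in *BCL11B*-/- MEFs. *Bcl11b*, the deleted gene, was 2.26- to 2.97-fold lower in *BCL11B*-/- MEFs over its 4 probe sets. In *BCL11B*-/- MEFs these probe sets still read 7.40, 6.33, 5.54 and 5.32 log2 units. Their place relative to the deletion is not given in the sources used here. Fibroblast markers were abundant in both cultures, with *Col1a2* at 14.06 and 13.97, although *Dcn* (−0.88) and *Thy1* (−0.65) were at least 1.5-fold lower and *S100a4* (0.65) higher. On their brightest probe sets all 12 macrophage markers were lower in *BCL11B*-/- MEFs, 11 of them by at least 1.5-fold. Of the 12331 named genes with a mean of at least 5 log2 units, 1.75% were that much lower. The summed level of the macrophage markers was 12.19 and 11.32 log2 units. The dimmest of them, *Ptprc*, read 5.81 in *BCL11B*+/+ and 4.998 in *BCL11B*-/- MEFs, a difference of −0.81. Over all of its probe sets *Ptprc* ranged up to 0.10, *Laptm5* up to 0.040 and *Csf1r* up to −0.14. Of 8 measured adipocyte markers 3 passed 1.5-fold on the lower side and 0 on the higher, beside 1.75% and 1.61% of all 12331 genes. The lower markers were *Lpl* (−0.97), *Cd36* (−0.71) and *Pparg* (−0.71). At 1.2-fold 4 markers were lower, with *Cebpa* (−0.53) added, and 2 were higher, *Adipoq* (0.56) and *Fabp4* (0.31). At that fold 7.80% of all 12331 genes were lower and 8.81% higher. Of the 8 markers 3 were above 0, and *Fabp4* ranged from −0.26 to 0.31 over its 4 probe sets. In bulk RNA, fewer cells of a type and less RNA per cell cannot be told apart.

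Both SREBP genes were nearly level between the genotypes. The single probe set of *Srebf1* gave 8.88 for *BCL11B*+/+ and 8.87 for *BCL11B*-/- MEFs, a difference of −0.011. *Srebf2* read 7.17 and 7.18 on the brighter of its probe sets, a difference of 0.012, and 6.92 and 6.84 on the other, a difference of −0.078. For scale, where a gene has several probe sets their differences scattered around the mean of that gene with an SD of 0.145 log2 units, pooled over 5543 genes, which is a technical yardstick and holds no variation between cultures. The differences of both SREBP genes lay inside it. The single probe set of *Srebf1* carries the suffix that marks probes shared by several transcripts of a gene, so the SREBP-1a and SREBP-1c transcripts could not be read apart.

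*Insig1* showed the largest difference of the 10 genes. It read 8.74 in *BCL11B*+/+ and 8.18 in *BCL11B*-/- MEFs, a difference of −0.56 or 1.48-fold lower, just short of 1.5-fold. Only 1.93% of the 12331 named genes with a mean of at least 5 log2 units had a lower difference. *Insig1* has 1 probe set here, so no second reading of it was available. By the weighted average difference, which multiplies the difference by the relative expression level, it ranked 216th from the lowest of the named genes. The other INSIG gene, *Insig2*, read 8.41 and 8.40, a difference of −0.012, and its 3 probe sets ranged from −0.082 to 0.045.

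*Hmgcs1*, *Idi1* and *Fdps*, the member enzymes that act before squalene synthase, read lower in *BCL11B*-/- MEFs on all of their probe sets, whereas *Mvk*, *Pmvk* and *Mvd*, which act between *Hmgcs1* and *Idi1*, did not on their brightest. *Hmgcs1*, which encodes the synthase that makes HMG-CoA, gave 11.07 for *BCL11B*+/+ and 10.85 for *BCL11B*-/- MEFs at its brightest probe set, a difference of −0.22. The other probe sets of *Hmgcs1* gave −0.20, −0.33, −0.34 and −0.28, the last of them under 5 log2 units. *Hmgcs1* was thus lower on 5 of 5 probe sets, by 1.15- to 1.26-fold, and these differences span less than the SD between probe sets. Its weighted rank, taken on the probe set with the largest absolute score, was 344th from the lowest. By the unweighted difference of −0.22, 10.1% of the named genes with a mean of at least 5 log2 units were lower. *Idi1*, the isomerase of isopentenyl diphosphate, read 9.38 and 9.21 on one probe set, a difference of −0.17, and 8.82 and 8.68 on the other, a difference of −0.14. *Fdps*, farnesyl diphosphate synthase, read 8.24 and 8.15, a difference of −0.093, within the spread between probe sets. Its second probe set, at 2.99 and 2.82, lies under the floor of 5.

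**Figure D1:**
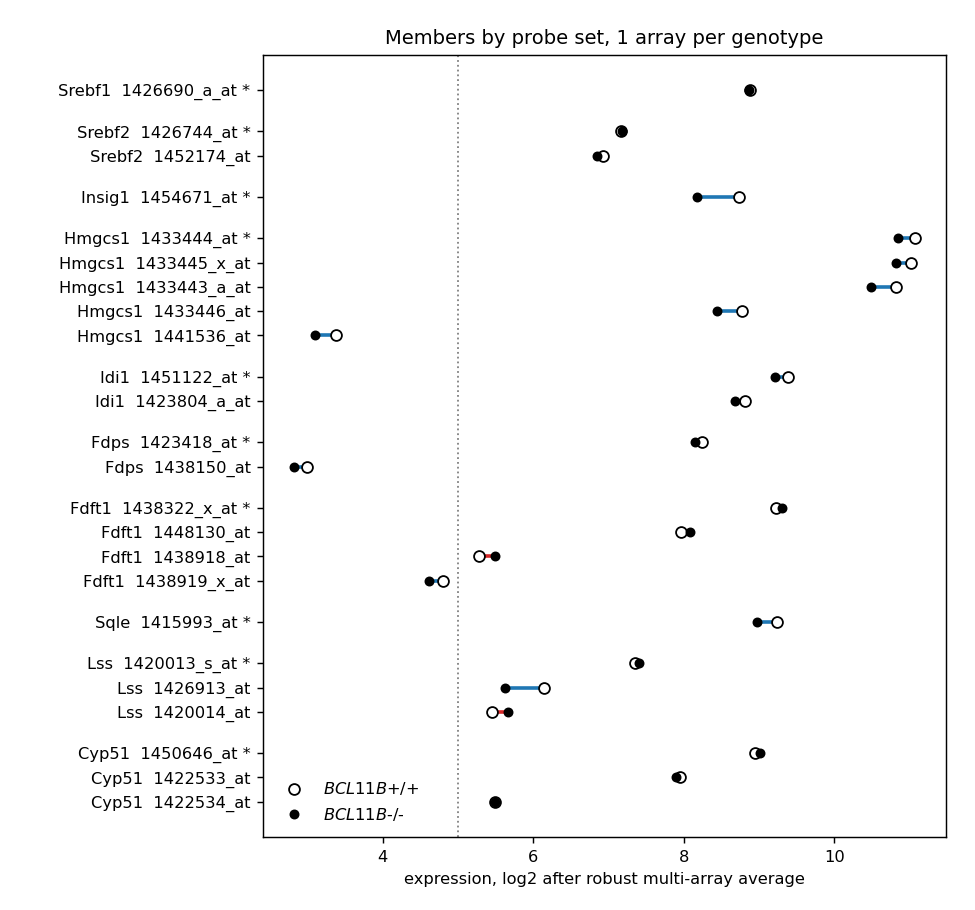
Log2 expression by robust multi-array average (horizontal axis) on the 24 probe sets of the 10 genes (vertical axis, gene and probe set, with an asterisk on the one that stands for the gene) with open circles for *BCL11B*+/+ and filled ones for *BCL11B*-/- MEFs, 1 array each, so there is no error to draw. Blue lines mark lower and red lines higher values in *BCL11B*-/- MEFs, and the dotted line is the floor of 5. The filled circle lies to the left on all 5 probe sets of *Hmgcs1* and farthest from the open one for *Insig1* (8.74 and 8.18).

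The letters before the start of 3 of the lower genes are shown because *Insig1*, *Hmgcs1* and *Idi1* are known SREBP targets and all 3 read lower in *BCL11B*-/- MEFs. They were picked after their values were seen, so the letters cannot be linked to the direction of the differences. The RefSeq table of GRCm38.p6 held windows for 7 of the 10 genes and none for *Fdft1*, *Fdps* or *Sqle*. The 250 bases before the start were read on the strand of the gene. Capitals mark matches on either strand to CACNCCAC, a loose form of the sterol regulatory element, its stricter forms CACCCCAC and TCACCCCAC, CCAAT, which NF-Y binds, GGGCGG, which Sp1 binds, and the E-box CACGTG. The stricter forms of the element are contained in the loose one.

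*Insig1*, chr5:28071162-28071411, plus strand: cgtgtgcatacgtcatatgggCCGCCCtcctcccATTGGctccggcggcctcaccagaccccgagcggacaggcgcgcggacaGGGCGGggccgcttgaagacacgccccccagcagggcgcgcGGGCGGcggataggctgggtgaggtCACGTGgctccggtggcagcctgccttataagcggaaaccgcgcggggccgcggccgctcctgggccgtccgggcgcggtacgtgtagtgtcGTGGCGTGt

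*Hmgcs1*, chr13:119690101-119690350, plus strand: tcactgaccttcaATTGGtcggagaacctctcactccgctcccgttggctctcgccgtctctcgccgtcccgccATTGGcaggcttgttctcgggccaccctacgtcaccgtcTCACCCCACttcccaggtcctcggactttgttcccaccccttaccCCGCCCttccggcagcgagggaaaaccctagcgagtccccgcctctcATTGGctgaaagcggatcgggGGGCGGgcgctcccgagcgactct

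*Idi1*, chr13:8885356-8885605, plus strand: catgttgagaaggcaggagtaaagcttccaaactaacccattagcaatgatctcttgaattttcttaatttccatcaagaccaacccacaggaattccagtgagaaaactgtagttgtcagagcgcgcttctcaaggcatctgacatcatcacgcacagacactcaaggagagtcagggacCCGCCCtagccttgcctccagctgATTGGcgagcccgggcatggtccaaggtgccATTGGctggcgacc

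*Hmgcs1* held TCACCCCAC, starting 137 bases before the start, a form found in 0.496% of the 32851 windows of this length. CACCCCAC was found in 2.58% of windows and CACNCCAC in 5.29%. *Insig1* held CACNCCAC on the opposite strand, starting 9 bases before the start, and CACGTG 101 bases before it, which 6.02% of windows hold. In *Idi1* none of the 3 forms of the element was found in these letters. CCAAT was found 1, 3 and 2 times in the windows of *Insig1*, *Hmgcs1* and *Idi1*, and 33.8% of windows hold it. GGGCGG was found 3, 2 and 1 times, and 32.7% of windows hold it. The windows of *Cyp51*, *Lss* and *Srebf2* held CCAAT and GGGCGG, those of *Srebf1* held CCAAT in 2 of 3 and GGGCGG in 2 of 3, and in none of these was a form of the element found. A match is a description of letters and no binding was measured.

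Beyond farnesyl diphosphate the 4 member enzymes went different ways. *Sqle*, squalene epoxidase, a rate-limiting step, has a single probe set, which gave 9.23 for *BCL11B*+/+ and 8.97 for *BCL11B*-/- MEFs, a difference of −0.26 or 1.2-fold lower. *Fdft1*, squalene synthase, read 9.23 and 9.30 on its brightest probe set, a difference of 0.071. Its next probe sets differed by 0.12 and 0.22, and the dimmest, under the floor, by −0.18. *Fdft1* was therefore slightly higher on all 3 probe sets above the floor. *Cyp51*, lanosterol demethylase, read 8.94 and 9.01, a difference of 0.064, while its other probe sets differed by −0.057 and by 0, the latter with the same value in both arrays. *Lss*, lanosterol synthase, cannot be given a direction. It read 7.35 and 7.41 on its brightest probe set, a difference of 0.064, but 6.15 and 5.62 on another, a difference of −0.53, and 5.46 and 5.66 on the last, a difference of 0.20. The brightest of these carries the suffix for probes that can also match other genes. The SD of its 3 differences, 0.39, was larger than the pooled value of 0.145.

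Counted over the 10 genes, none was at least 1.5-fold lower or higher in *BCL11B*-/- MEFs. Of all 12331 named genes with a mean of at least 5 log2 units, 1.75% were at least 1.5-fold lower and 1.61% higher. At 1.2-fold, *Insig1* and *Sqle* were lower and none was higher, against 7.80% of all genes lower and 8.81% higher. *Sqle* lies on the line, so the count is 1 or 2. The median difference of the 10 genes was −0.052, with 6 below 0 and 4 above, beside a median of 0 and 48.5% below 0 for all named genes. This median depends on the probe sets used: it was −0.11 with the probe sets of each gene averaged, and −0.17 on probe sets that carry no suffix or on those with the largest absolute difference. Of the 24 probe sets, 16 were below 0, 7 above and 1 equal. Without a floor, all 45037 probe sets that are not controls gave 20834 below 0, 21236 above and 2967 equal. Of the 21 member probe sets above the floor, 13 were below 0, 7 above and 1 equal. Probe sets of 1 gene are not independent, and *Hmgcs1* gives 5 of the 16. None of the 10 genes was among the 50 highest or 50 lowest by weighted average difference.

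**Figure D2:**
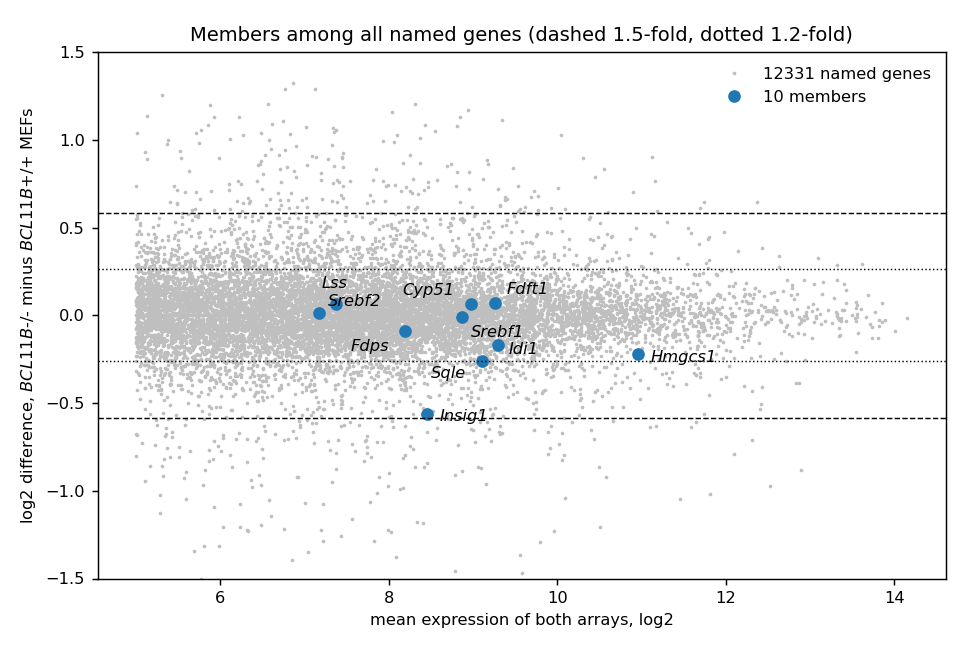
Difference in log2 expression (vertical axis) against the mean of both arrays (horizontal axis) for the 12331 named genes with a mean of at least 5 (grey points) and the 10 genes (blue points), 1 array per genotype. Dashed lines are 1.5-fold and dotted lines 1.2-fold, and 29 grey genes lie outside the vertical range. *Insig1* lies just above the lower dashed line and *Sqle* on the lower dotted line, and the other 8 lie between the dotted lines.

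Further enzymes of cholesterol synthesis, from a list fixed with earlier results of these arrays known, were read on 11 genes. None was at least 1.5-fold apart, 1 was at least 1.2-fold lower and none higher, and their median was −0.056. The kinases and decarboxylase that follow HMG-CoA reduction were level or slightly higher: *Mvk* differed by 0.022, *Mvd* by 0.050 and *Pmvk*, phosphomevalonate kinase, by 0.20, the highest of the list. *Mvd* gave −0.20 on its other probe set. Of the 8 enzymes that act after *Cyp51*, 7 were below 0, with a median of −0.12. *Ebp*, a sterol isomerase, was the lowest, with 8.71 and 8.44 for *BCL11B*+/+ and *BCL11B*-/- MEFs, a difference of −0.28. *Hsd17b7*, a sterol ketoreductase, differed by −0.23 and was below 0 on all 4 probe sets, the dimmest of them under the floor. *Sc5d*, a sterol desaturase, differed by −0.10 on its brightest probe set and by −0.41 and −0.28 on the others. *Dhcr7*, the last reductase, differed by −0.14. *Msmo1*, a sterol oxidase, differed by −0.13, but its dim second probe set differed by 0.33. Over all 18 measured enzymes of the pathway, members included, 11 were below 0 and 7 above. *Ebp* and *Nsdhl* are X-linked. *Xist*, which marks the inactive X chromosome, read 10.80 in *BCL11B*+/+ and 4.80 in *BCL11B*-/- MEFs, the latter under 5, a difference of −5.99. A difference in sex between the cultures can therefore not be told apart from genotype, for these or any other genes here. Its part in the results was not tested.

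**Figure D3:**
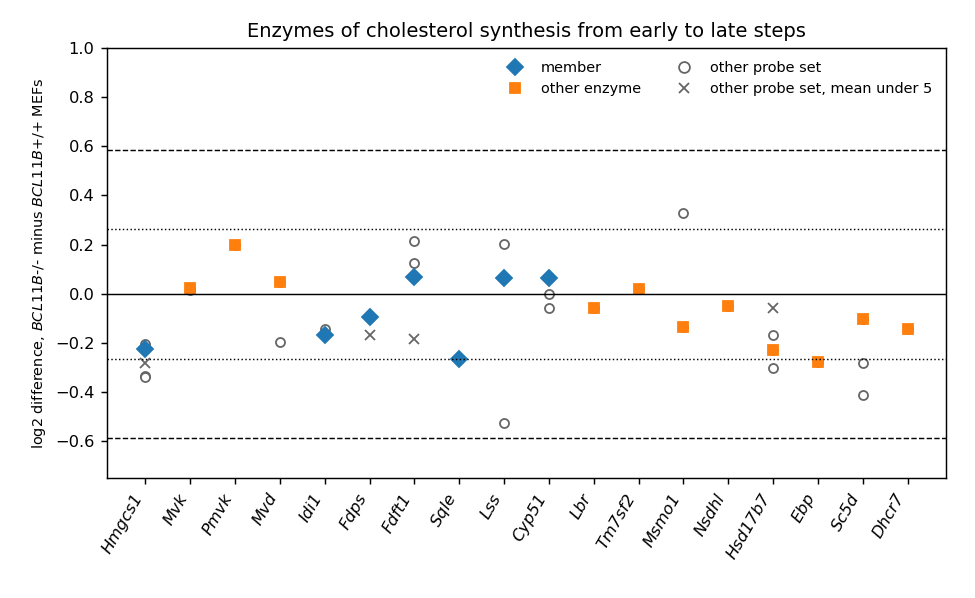
Difference in log2 expression (vertical axis) for the 18 measured enzymes of cholesterol synthesis from early to late steps (horizontal axis), 1 array per genotype. Blue diamonds are members and orange squares other enzymes, each at its brightest probe set, open circles are their other probe sets and crosses those with a mean under 5, and dashed and dotted lines are 1.5-fold and 1.2-fold. The 7 members lie on both sides of 0, with *Sqle* lowest at −0.26, and *Lss* has probe sets from −0.53 to 0.20.

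Apart from *Insig1*, the genes that control SREBPs showed small differences. Of 9 measured genes for the escort, the proteases, the other anchor and their degradation, none was 1.2-fold apart and the median was −0.012. *Scap*, the escort, differed by 0.035. The protease genes *Mbtps1* and *Mbtps2* differed by −0.13 and −0.14, the latter being the lowest of the list, and *Rnf145*, a ubiquitin ligase, was the highest with 0.045. *Mbtps2* is also X-linked. Of 7 factors that bind beside SREBPs, none was 1.2-fold apart on its brightest probe set. *Nfya*, a subunit of NF-Y, was the lowest with −0.26, at 7.42 and 7.16, and *Usf1* the highest with 0.15. The median of these 7 was 0.016. The second probe set of *Usf2*, at 6.95 and 6.57, differed by −0.38. *Usf1* differed by −0.052 and −0.050 on its other probe sets, and *Nfya* by −0.25 and 0.22 on its others, both under 5.

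Genes of sterol uptake, storage and efflux differed more. Of 6 measured target genes of the LXR receptors, which respond to sterol excess, 2 passed 1.5-fold on the lower side and 0 on the higher. Of all 12331 named genes, 1.75% and 1.61% did. The median of the 6 was −0.11. No receptor gene was among the 6: *Nr1h3* read 4.82 in *BCL11B*+/+ and 4.89 in *BCL11B*-/- MEFs, under the floor of 5. *Apoe*, which encodes an apolipoprotein, read 9.31 in *BCL11B*+/+ and 8.42 in *BCL11B*-/- MEFs, which is 1.85-fold lower on its single probe set. *Abca1*, the cholesterol efflux pump, read 11.95 and 11.34, which is 1.52-fold lower. The other probe sets of *Abca1* differed by −0.80 and −0.71, the latter under the floor. *Lpcat3* was the highest with 0.14. *Abcg1*, another efflux pump, differed by 0.034. Among 8 measured genes of uptake, transport and storage none was 1.5-fold apart, and *Lipa*, the lysosomal lipase that frees cholesterol, was the lowest with −0.42. All 3 probe sets of *Lipa* were below 0, down to −0.61. *Gramd1b* was the highest with 0.12. *Apoe*, *Abca1* and *Lipa* are also expressed by macrophages, whose markers had a median of −0.87, from −1.07 for *Mrc1* to −0.50 for *Fcer1g*, and their part in these values was not tested.

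Genes of fatty acid synthesis lay on both sides of 0, more of them above. Of 15 measured genes none was 1.5-fold apart, but 4 were at least 1.2-fold higher and none lower, beside 8.81% and 7.80% of all genes. Their median was 0.084, with 9 above 0 and 6 below. *Me1*, malic enzyme, which supplies NADPH, was the highest, at 8.93 in *BCL11B*+/+ and 9.43 in *BCL11B*-/- MEFs, a difference of 0.50, and its other probe set differed by 0.43. The fatty acid elongase gene *Elovl6* differed by 0.35 and was above 0 on all 3 probe sets, the dimmest of them under the floor. *Mid1ip1*, an activator of acetyl-CoA carboxylase that is X-linked, differed by 0.29 and *Fads2*, a desaturase gene, by 0.28. *Fasn*, fatty acid synthase, differed by −0.14, and *Lpin1*, a phosphatidate phosphatase, was the lowest with −0.19. *Scd1*, stearoyl-CoA desaturase, differed by 0.084 on its brighter probe set and by 0.33 on the other. *Srebf1* itself differed by −0.011.

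Branches that leave the pathway before sterols, such as protein prenylation, dolichol and ubiquinone, showed a median of −0.089 over 11 measured genes, with none 1.5-fold apart and 1 at least 1.2-fold lower. On probe sets that carry no suffix this median turned to 0.030. The lower gene was *Ggps1*, which makes geranylgeranyl diphosphate from the product of *Fdps*. It read 8.37 in *BCL11B*+/+ and 8.01 in *BCL11B*-/- MEFs, a difference of −0.36, and its other 3 probe sets differed by −0.21, 0.056 and 0.019. *Fntb*, a subunit of farnesyltransferase, was the highest with 0.16.

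**Figure D4:**
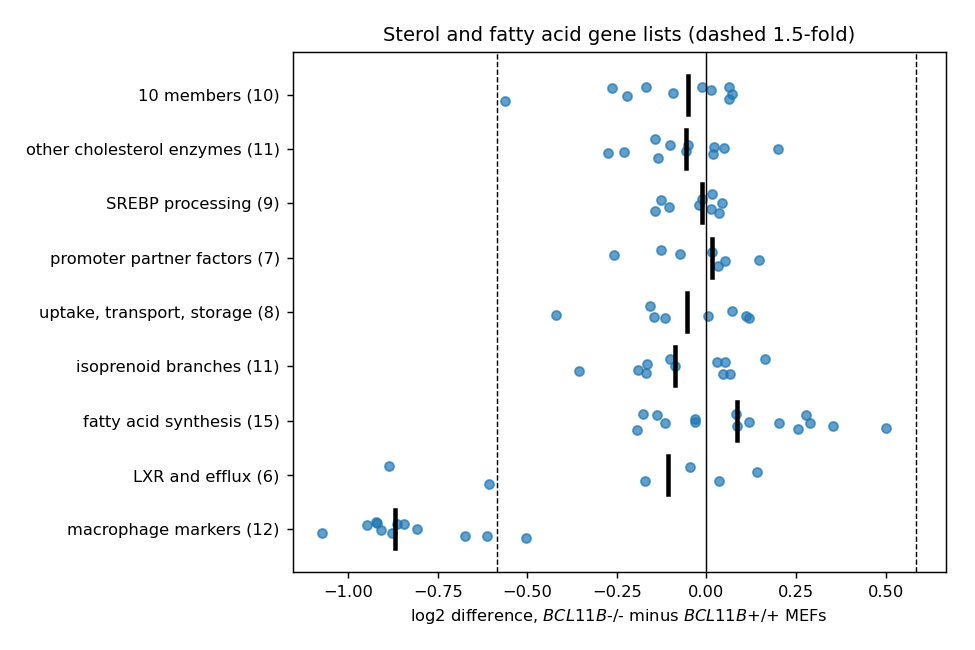
Difference in log2 expression (horizontal axis) of each gene (blue points) in 9 lists, which the vertical axis gives with the number of genes measured, 1 array per genotype. Black bars are list medians, dashed lines are 1.5-fold, and points are spread vertically for legibility only. The 10 genes have a median of −0.052, fatty acid synthesis 0.084, and macrophage markers −0.87, and *Apoe* and *Abca1* lie beyond the dashed line in the LXR list.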

How the data were processed

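Expression was measured on 1 Affymetrix mouse expression array per genotype. The authors amplified 100 ng of total RNA and summarised each probe set by RMA, the robust multi-array average, in R, version 3.0.3 per the submitters' processing notes, so the deposited values are log2 expression after background correction, normalization between arrays and summary of probes. Normalization hides a change of total mRNA, and background pulls differences of dim genes toward 0. No genome build for the probes is given in the sources used here.

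Of 45101 probe sets, 34958 carried 1 gene symbol in the annotation, 932 several and 9211 none. The 64 controls were left out. Each gene was read on its brightest probe set over both arrays, and a mean under 5 left it out of counts and medians, which left 12331 genes. All 10 genes matched RefSeq by Entrez identifier. The suffixes _a, _s and _x mark probe sets whose probes are shared by transcripts of a gene, by several genes, or may cross-hybridize. Weighted average difference is the difference times the mean rescaled from 0 to 1 over probe sets, and a gene took its largest absolute score. Genes were named if they were members, past 1.5-fold, the highest or lowest of a list, or fixed by name. Other genes were named after their values were seen. The members and lists were chosen with earlier results of these data known. Some listed genes are not analysed here. With 1 array per group no test was possible. The counting was tested on simulated data. Endothelial, epithelial, neural, skeletal muscle and hepatocyte markers were counted too: of 3, 6, 6, 3 and 3 measured genes, 0, 0, 1, 0 and 0 were at least 1.5-fold higher and 0, 0, 0, 1 and 0 lower. Of 11 fibroblast markers 1 was higher and 2 were lower. Alternatives were other choices of probe set, filter, fold and ranking, subtraction of the median difference, and a loess fit with a span of 0.4. Python 3.11.15, numpy 2.4.6, pandas 2.3.3, statsmodels 0.14.6 and matplotlib 3.10.9 were used.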

Additional observations from a re-analysis of the deposited data

How the results depend on the processing

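With 1 array per genotype no replicate could be left out. No paired analysis was possible because each genotype has 1 array. Of 69 alternative values of the 10 genes, 65 stayed within 0.145 log2 units, the SD between probe sets, of the reported value and 4 did not: *Lss* was −0.086 when its probe sets were averaged and −0.53 without suffixed probe sets or on the probe set with the largest absolute difference, and *Fdft1* was 0.22 on the latter. Of 445 values of 67 other pathway genes 22 lay further off. The loess fit ran from −0.011 to 0.014 and the median difference was 0, so neither moved a call. The median of the 10 genes was −0.11 with the probe sets of each gene averaged, −0.17 on those that carry no suffix (9 genes) and −0.17 by largest absolute difference (9 genes). Without suffixed probe sets the isoprenoid median was 0.030, and 1 gene of uptake and transport and 1 of LXR and efflux were lower. The former was *Lipa*, then read at −0.61, and the latter count fell because the only probe set of *Apoe* carries a suffix. By largest absolute difference the median was −0.082 for SREBP processing and −0.13 for uptake and transport, where 1 gene was lower, again *Lipa*. Without the filter the LXR and efflux median was −0.045, and with a mean of at least 7 that of uptake and transport was −0.12. At 1.2-fold 2 of the 10 genes were lower, as were 1 other cholesterol enzyme, 1 gene of uptake and transport and 1 of the isoprenoid branches, and 4 fatty acid genes were higher, by construction. At 2-fold 0 genes of LXR and efflux were lower. The cause of the other changes was not tested.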
